A study of Mus musculus with 6 samples.

Results

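Collagen genes were followed across the stromal cell classes of the mouse intestinal lamina propria. A gene was taken as a member when its symbol in the count matrices read Col, a number, the letter a and a number, with nothing more. The rule used no measured value and took 44 of the 33697 genes. Their levels were read in each library and in each class of cells set apart by marker genes, none of which was a collagen.

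The cells came from C57BL/6 Flare-TSLP mice, in which a cassette with an internal ribosome entry site and the red fluorescent protein tdTomato sits in the 3′ end of Tslp, with loxP sites around the last exons. Tslp encodes the epithelial and stromal cytokine TSLP, and the reporter line was raised from 1 targeted embryonic stem cell clone. All groups carried the same allele with no Cre transgene, and the study's pooled experiments used female and male mice of 8 to 12 weeks. Live tdTomato+ cells of the lamina propria were sorted with no other marker and profiled as single cells from their 3′ ends, in 2 libraries of proximal jejunum, 2 of distal ileum, 1 of cecum and 1 of large intestine. Levels below are therefore those of cells sorted as reporter-positive, and clusters short of tdTomato transcripts, which the study set aside, were not removed here.

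Collagens are extracellular matrix proteins built of 3 chains wound into a triple helix, and each chain has its own gene. The fibrillar types, chiefly I, III and V, form the cable-like fibrils of connective tissue, and fibril-associated types such as XII and XIV sit on their surface. Type IV chains form the sheet of basement membranes, under the gut epithelium and around vessels, type VI forms beaded filaments, types XV and XVIII are the multiplexins found at basement membranes, and types XIII, XVII, XXIII and XXV span the plasma membrane. In the gut these proteins are made mainly by fibroblasts, which differ along the crypt-villus axis: trophocytes lie below the crypts and supply stem cell factors, subepithelial myofibroblasts (SEMFs) and telocytes lie against the epithelium, and Pi16+ universal fibroblasts lie deeper.

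After filtering, 93558 cells were kept, between 11174 and 19073 per library, with medians of 6607 to 9233 transcript counts (unique molecular identifiers, UMIs) per cell. The 6 libraries held 109675337 to 206827504 gene UMIs. A gate on marker genes placed the cells in 13 classes and left 29661 without a class. The classes are named here with "-like" because the names rest on markers alone. The largest were 15418 LEC-like (lymphatic endothelial), 13621 Adamdec1+ fibroblast-like, 13069 trophocyte-like and 7235 SEMF-like cells. The gate left out 18.1 to 33.6% of the cells in the small intestinal libraries and 58.3 and 45.1% in the cecal and large intestinal ones. Its cut ran through a continuum of fibroblasts: 1947 of the trophocyte-like cells lay within 0.1 score units above it and 1912 ungated cells within 0.1 below it, against 32 and 17 for LEC-like cells. The libraries pool hashtagged cells, and the labels tie no hashtag to a mouse, so p-values measure the spread between libraries. Barcodes with at most 100 UMIs, whose summed profile is called free RNA here, held 2.90 to 3.82% of the gene UMIs. This is not the share of free RNA among the UMIs of the cells, which was not measured.

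A gene's level is its share of the gene UMIs of a class in a library, written in CPM, the usual scale on which the counts of every class and library are brought to the same fixed total. Molecules are counted once from their 3′ ends, so levels are not divided by gene length. Differences between genes in capture or in 3′ end annotation were not tested, and they bear on ratios and orders of different genes. Where 6 values stand in a row, they follow the order proximal replicate 1, proximal replicate 2, distal replicate 1, distal replicate 2, cecum and large intestine. Levels are used only for classes with at least 30 cells in a library, which leaves the telocyte-like class without distal replicate 2, the blood endothelial-like class without the cecum and the glia-like class with 3 small intestinal libraries. Fitted changes are log2 fold changes with standard errors from edgeR's quasi-likelihood test of summed counts, with the library as a block where 2 classes of the same libraries are compared and with Benjamini-Hochberg adjustment over all genes tested.

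The 200 bases before the start of the Ensembl canonical transcript of 4 genes are shown because these genes mark the contrasts described below. Col1a1 and Col1a2 encode the chains of type I collagen and moved together. Col14a1 was high in SEMF-like cells of the small intestine and low in those of the large bowel. Col23a1 had the highest mean of the collagens in LEC-like cells. Capitals mark 3 short promoter motifs on either strand: the CCAAT box, which reads ATTGG on the other strand, the GC box letters GGGCGG, which then read CCGCCC, and the TATA box letters TATAAA, which then read TTTATA. The windows lie at chr11:94826850-94827049 (Col1a1), chr6:4505293-4505492 (Col1a2), chr15:55170940-55171139 (Col14a1) and chr11:51180366-51180565 (Col23a1), all on the plus strand of GRCm39, with starts from GENCODE. Other transcripts can start elsewhere, and the annotated Col1a2 gene begins upstream of its window, at chr6:4504814.
Col1a1: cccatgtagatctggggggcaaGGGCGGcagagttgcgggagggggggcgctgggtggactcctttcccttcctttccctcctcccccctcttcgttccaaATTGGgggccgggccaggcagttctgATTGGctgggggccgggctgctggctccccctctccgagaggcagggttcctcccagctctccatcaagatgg
Col1a2: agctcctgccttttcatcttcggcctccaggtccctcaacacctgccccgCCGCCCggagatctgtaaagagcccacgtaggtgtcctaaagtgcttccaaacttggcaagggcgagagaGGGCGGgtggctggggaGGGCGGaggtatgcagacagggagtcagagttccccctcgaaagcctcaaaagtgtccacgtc
Col14a1: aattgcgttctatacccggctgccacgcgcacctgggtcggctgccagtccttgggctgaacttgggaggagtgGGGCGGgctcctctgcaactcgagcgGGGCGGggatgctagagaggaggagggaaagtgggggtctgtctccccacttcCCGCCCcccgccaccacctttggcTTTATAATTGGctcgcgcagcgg
Col23a1: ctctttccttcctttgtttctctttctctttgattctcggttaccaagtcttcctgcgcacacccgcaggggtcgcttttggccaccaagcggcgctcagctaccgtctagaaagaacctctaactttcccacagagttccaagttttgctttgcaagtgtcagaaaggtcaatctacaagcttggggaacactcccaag
The Col23a1 window held none of the 3 motifs. CCAAT stood in the windows of 13 of the 44 members and in 32.3% of 21770 gene windows of the same length, GGGCGG in 21 members and 34.8%, and TATAAA in 7 members and 9.6%. A match in letters is a description of the sequence only.

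The type IV genes lie in head-to-head pairs, with opposite strands and starts close together. Between the starts of the canonical transcripts there were 102 bases for Col4a3 and Col4a4, 316 bases for Col4a1 and Col4a2, and 1281 bases for Col4a5 and Col4a6. With all annotated transcripts counted, the genes of the first 2 pairs overlap at these ends. The stretch between the canonical starts of Col4a3 and Col4a4, at chr1:82564698-82564799 of GRCm39 and read towards Col4a3, is shown because the members of this pair did not keep 1 ratio across classes; it held none of the motifs.
Col4a3 and Col4a4: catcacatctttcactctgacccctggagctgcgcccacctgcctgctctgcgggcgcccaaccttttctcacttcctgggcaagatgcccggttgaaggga

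Collagen transcripts took the largest share of all UMIs in trophocyte-like cells, at 2.88 ± 0.205% (SD, n = 6 libraries), and in universal fibroblast-like cells, at 2.71 ± 0.90% (n = 6). The share was 2.13 ± 0.330% in Adamdec1+ fibroblast-like, 1.82 ± 0.341% in SEMF-like, 1.76 ± 0.235% (n = 5) in telocyte-like and 1.47 ± 0.596% in Ptn+ Scg2+ fibroblast-like cells. The Ptn+ Scg2+ mean was raised by the cecum and large intestine, at 2.47 and 1.94% against 1.01 to 1.19% in the small intestine. In contractile and vascular classes the share was 1.35 ± 0.280% in myofibroblast-like cells, which overlapped the Ptn+ Scg2+ libraries, 0.927 ± 0.436% in pericyte-like, 0.477 ± 0.0477% (n = 5) in blood endothelial-like and 0.326 ± 0.0351% in LEC-like cells. Without doublet removal the collagen share of LEC-like cells was 0.614% and that of blood endothelial-like cells 0.704%. The wide spread of the universal class came from the cecum, where the share was 4.52% against 2.19 to 2.63% in the other 5 libraries. The cecum also had the highest collagen share of free RNA, 3.37% against 1.61 to 2.26% in the others, and its part in the cecal levels was not tested.

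**Figure D1:**
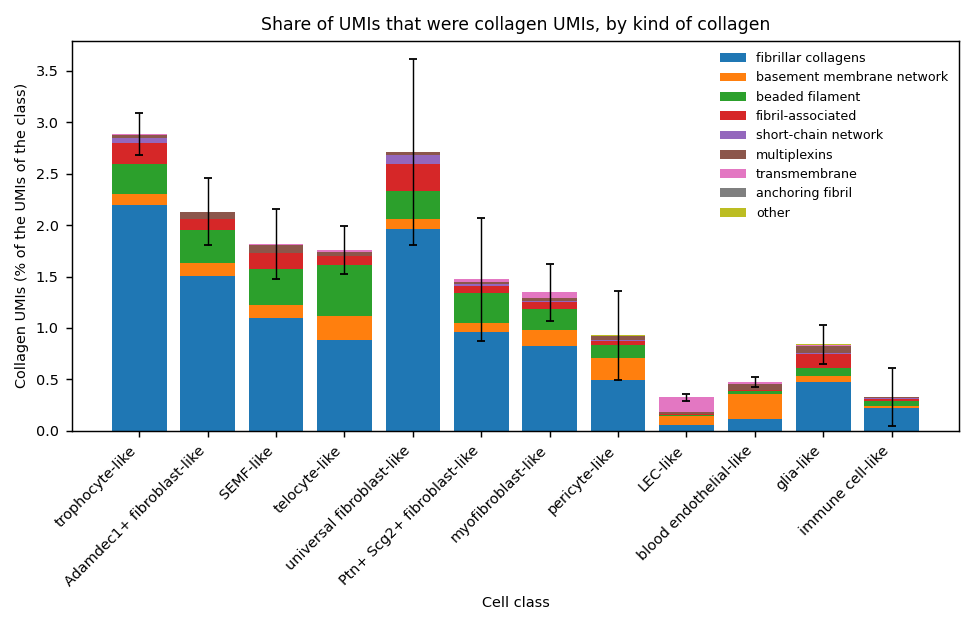
Collagen UMIs as percent of all gene UMIs of a class (y axis) by cell class (x axis), stacked by collagen family, as means over libraries with SD bars for the total. Trophocyte-like and universal fibroblast-like bars are the tallest, at 2.88 and 2.71%, and LEC-like the lowest of the stromal and vascular classes, at 0.326%.

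Fibrillar collagens made up 76.2% of collagen UMIs in trophocyte-like cells, 60.3% in SEMF-like and 50.1% in telocyte-like cells, and 18.6% in LEC-like cells. The last share is not read as expression of LEC-like cells. Col1a1, Col1a2, Col3a1, Col5a1 and Col5a2 stood there at medians of 3.12, 3.08, 3.65, 3.75 and 6.33% of free RNA. The immune cell-like medians, which serve as background, were 12.9, 13.3, 14.2, 11.8 and 16.3%. Subtracting 10% of the free RNA profile sets levels below that share to 0, and did so for these genes in all 6 LEC-like libraries. Basement membrane collagens made up 3.55% in trophocyte-like cells, 13.2% in telocyte-like, 23.6% in pericyte-like, 25.3% in LEC-like and 51.4% in blood endothelial-like cells. Beaded filament collagens were largest in telocyte-like cells, at 28.5%, and transmembrane collagens in LEC-like cells, at 42.5%. By mean level, Col3a1 was the highest collagen in 10 of the 12 classes with 2 or more libraries. The exceptions were blood endothelial-like cells, led by Col4a1, and LEC-like cells, led by Col23a1. In the cecal and large intestinal LEC-like libraries, however, Col4a1 was above Col23a1. The 10 classes led by Col3a1 include immune cell-like cells, whose median Col3a1 level was 14.2% of that in free RNA. This serves below as the background, so no expression is read from that class.

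Of the 44 members, 39 reached a mean of 5 CPM in at least 1 class, and 19 to 31 did so in any 1 class. Col2a1, Col7a1, Col9a1, Col10a1 and Col11a2, known from cartilage or skin, stayed under 5 CPM in all classes. Each of the 39 had its highest mean in some class. For 13 of them the libraries of that class did not overlap those of the next class. Of the 14569 genes at 5 CPM or more, 17.2% were so separated. This describes the class picked as highest and is not a test. Of the 13, Col9a2, Col9a3, Col11a1, Col17a1 and Col26a1 were under 5 CPM in the next class. They passed the 5 CPM filter only through their highest class. Glia-like cells accounted for 7 of the 13, telocyte-like cells for 3 (Col4a5, Col4a6 and Col24a1) and Ptn+ Scg2+ fibroblast-like cells for 3 (Col8a2, Col17a1 and Col25a1). The glia-like class had 3 libraries of 34 to 57 cells, and in the smallest 3 UMIs correspond to 11.8 CPM. For the remaining 26 members, the class with the highest mean was not apart from the next one in every library.

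**Figure D2:**
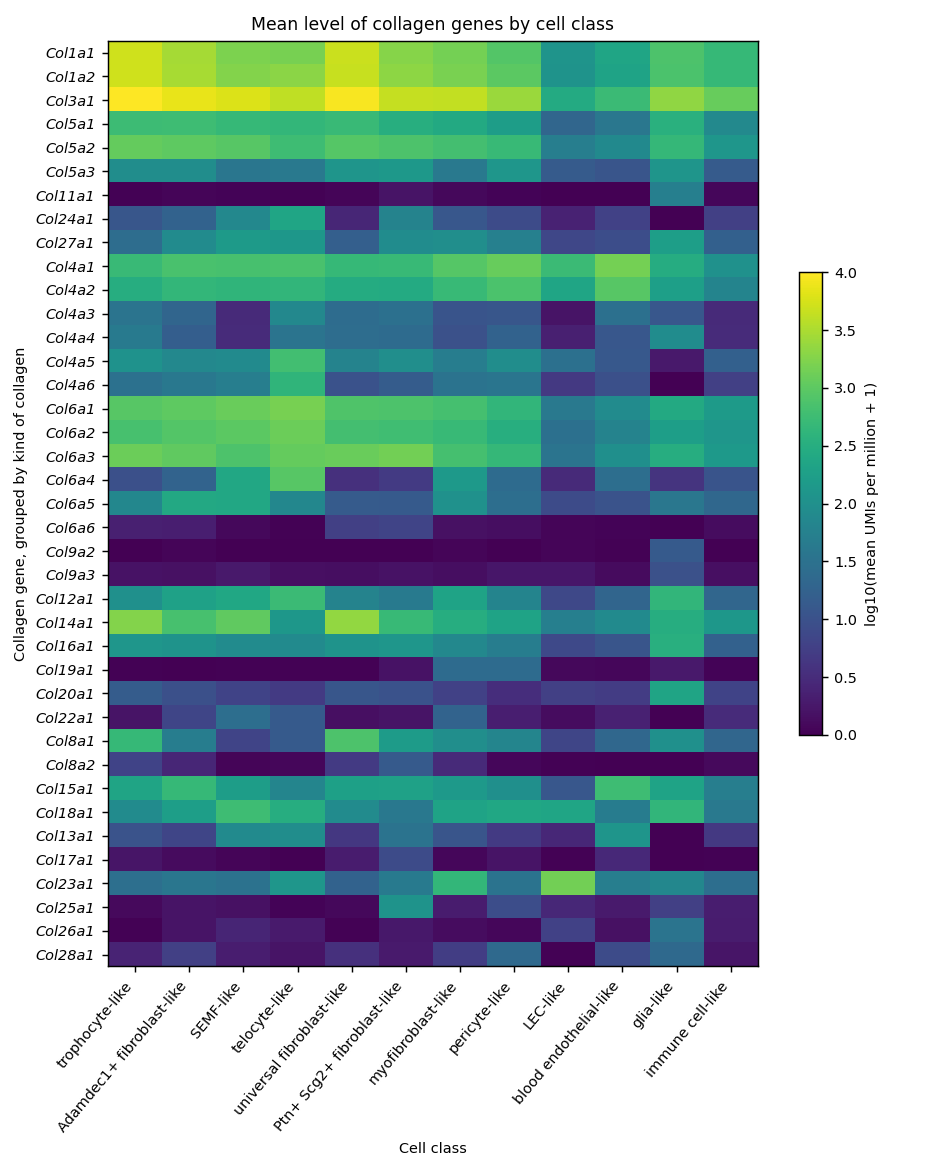
Mean level of the 39 collagen genes that reached 5 CPM (rows, grouped by family) in 12 cell classes (columns), coloured by log10 CPM. Col1a1, Col1a2, Col3a1 and Col6a1 are high in all fibroblast classes, Col4a5 and Col4a6 stand out in telocyte-like cells, and Col23a1 in LEC-like and myofibroblast-like cells.

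The ratios of chains that assemble together had a narrow range over fibroblast classes for some pairs and a wide one for others. The ratio of Col1a1 to Col1a2 UMIs had means of 0.759 in telocyte-like to 0.985 in trophocyte-like cells over the 6 fibroblast classes, and that of Col6a1 to Col6a2 of 1.19 in Adamdec1+ to 1.34 in trophocyte-like cells. The ratio of Col4a1 to Col4a2 was 1.60 to 1.78 in the fibroblast, contractile, glia-like, immune cell-like and blood endothelial-like classes and 2.48 ± 0.292 (n = 6) in LEC-like cells. Over the fibroblast classes, means ran from 0.424 to 0.857 for Col5a1 to Col5a2, from 0.627 to 2.19 for Col6a3 to Col6a1 and, in 3 of them, from 1.5 to 4.89 for Col4a5 to Col4a6. The ratio of Col3a1 to Col1a1 went from 1.97 ± 0.256 in trophocyte-like cells to 3.88 ± 0.571 in SEMF-like cells. That of Col6a5 to Col6a4, which encode alternative chains of type VI collagen, was 0.0970 ± 0.060 (n = 5) in telocyte-like and 17.0 ± 13.1 (n = 6) in Adamdec1+ fibroblast-like cells, where the libraries ran from 0.729 to 38.8.

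SEMF-like cells were compared with trophocyte-like cells, fibroblasts at the epithelium with fibroblasts below the crypts. They had lower type I and type III collagen, far lower Col8a1, and higher Col6a4, Col18a1, Col24a1 and Col13a1. Of the 33 collagen genes tested, 9 were higher and 15 lower, where 50.4% of all 14484 genes passed the test. The median fitted change was -0.53 over the members and 0.04 over all genes. Of the 9 fibrillar genes tested, 6 were lower and 2 higher, and of the 6 basement membrane genes, 3 were lower and none higher.

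Col1a1, the gene of the main chain of type I collagen (chr11:94827050-94843868), was at 4734, 4710, 4810, 4767, 6865 and 4792 CPM in trophocyte-like cells and at 940, 1309, 1024, 1362, 3050 and 2215 CPM in SEMF-like cells. The libraries of the classes did not overlap, and the cecum was highest in both. The fitted change was -1.99 ± 0.23 (adjusted p = 0.000211). Col1a2, its partner chain, fell alongside by 1.85 on the log2 scale (adjusted p = 0.000316). Col3a1, the type III chain, was at 9894, 10311, 8936, 9616, 10313 and 10295 CPM in trophocyte-like and at 3815, 4696, 4752, 5708, 9051 and 8470 CPM in SEMF-like cells. It was lower in SEMF-like cells of all 6 libraries (-1.01 ± 0.22, adjusted p = 0.006), with a smaller gap in the cecum and large intestine.

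Col8a1, a short-chain network collagen, was the most strongly lower member. It had 3.64 to 9.63 CPM in the SEMF-like class and 259 to 669 CPM in the trophocyte-like one (-6.65 ± 0.26, adjusted p = 1.12e-06). Free RNA held 94.4 to 158 CPM of Col8a1. Subtracting 10% of the free RNA profile, which sets levels below that share to 0, left it at 0 in all 6 SEMF-like libraries. Its level there was not told apart from background, so the size of the fold is not exact. Col4a3 and Col4a4, basement membrane chains best known from kidney, were at means of 33.0 and 44.3 CPM in trophocyte-like cells and at 2.01 and 2.06 CPM in SEMF-like cells (-4.38 ± 0.40 and -4.67 ± 0.15). With free RNA subtracted, their SEMF-like means were 0.924 and 0.485 CPM, so the sizes of these folds are not exact either. Col8a2 was low in both classes, at means of 5.30 and 0.121 CPM, and is counted among the lower genes.

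Among the higher genes, Col6a4, an alternative type VI chain, was at 4.39, 6.78, 4.14, 6.19, 23.8 and 5.31 CPM in trophocyte-like and at 361, 251, 260, 254, 187 and 158 CPM in SEMF-like cells. All 6 libraries were apart (5.19 ± 0.34, adjusted p = 1.3e-05). With free RNA subtracted, trophocyte-like Col6a4 averaged 3.22 CPM with 2 libraries at 0, so the size of the fold is not exact. Col18a1, whose C-terminal part is released as endostatin, was at 64.4 to 99.3 CPM in trophocyte-like and 280 to 731 CPM in SEMF-like cells (2.47 ± 0.12, adjusted p = 3.22e-06). Col24a1, a minor fibrillar chain, Col13a1, a transmembrane collagen of cell junctions, and Col22a1, a fibril-associated collagen of tissue junctions, were higher by 3.02 ± 0.40, 2.82 ± 0.15 and 6.45 ± 0.25. Col22a1 was low in absolute terms, at means of 27.2 and 0.611 CPM in these classes. With free RNA subtracted its trophocyte-like mean was 0.439 CPM, so the size of its fold is not exact.

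Other main members did not pass the test. Col4a1 was at means of 679 and 508 CPM in SEMF-like and trophocyte-like cells (0.19 ± 0.09, adjusted p = 0.106), and Col6a1 at 1218 and 914 CPM (0.18 ± 0.09, adjusted p = 0.129). Col14a1 was at 1054 ± 778 CPM in the SEMF-like class and 1809 ± 224 CPM in the trophocyte-like one (-1.73 ± 0.73, adjusted p = 0.0796), and Col15a1 at 165 ± 132 and 212 ± 58.0 CPM (-0.94 ± 0.45, adjusted p = 0.115). Both passed when only the 4 small intestinal libraries were fitted, with -0.67 (adjusted p = 0.00061) and -1.67 (adjusted p = 0.0019), and Col15a1 also without the cecum (-1.26) or without the large intestine (adjusted p = 0.043). The large bowel values behind this are described further below.

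**Figure D3:**
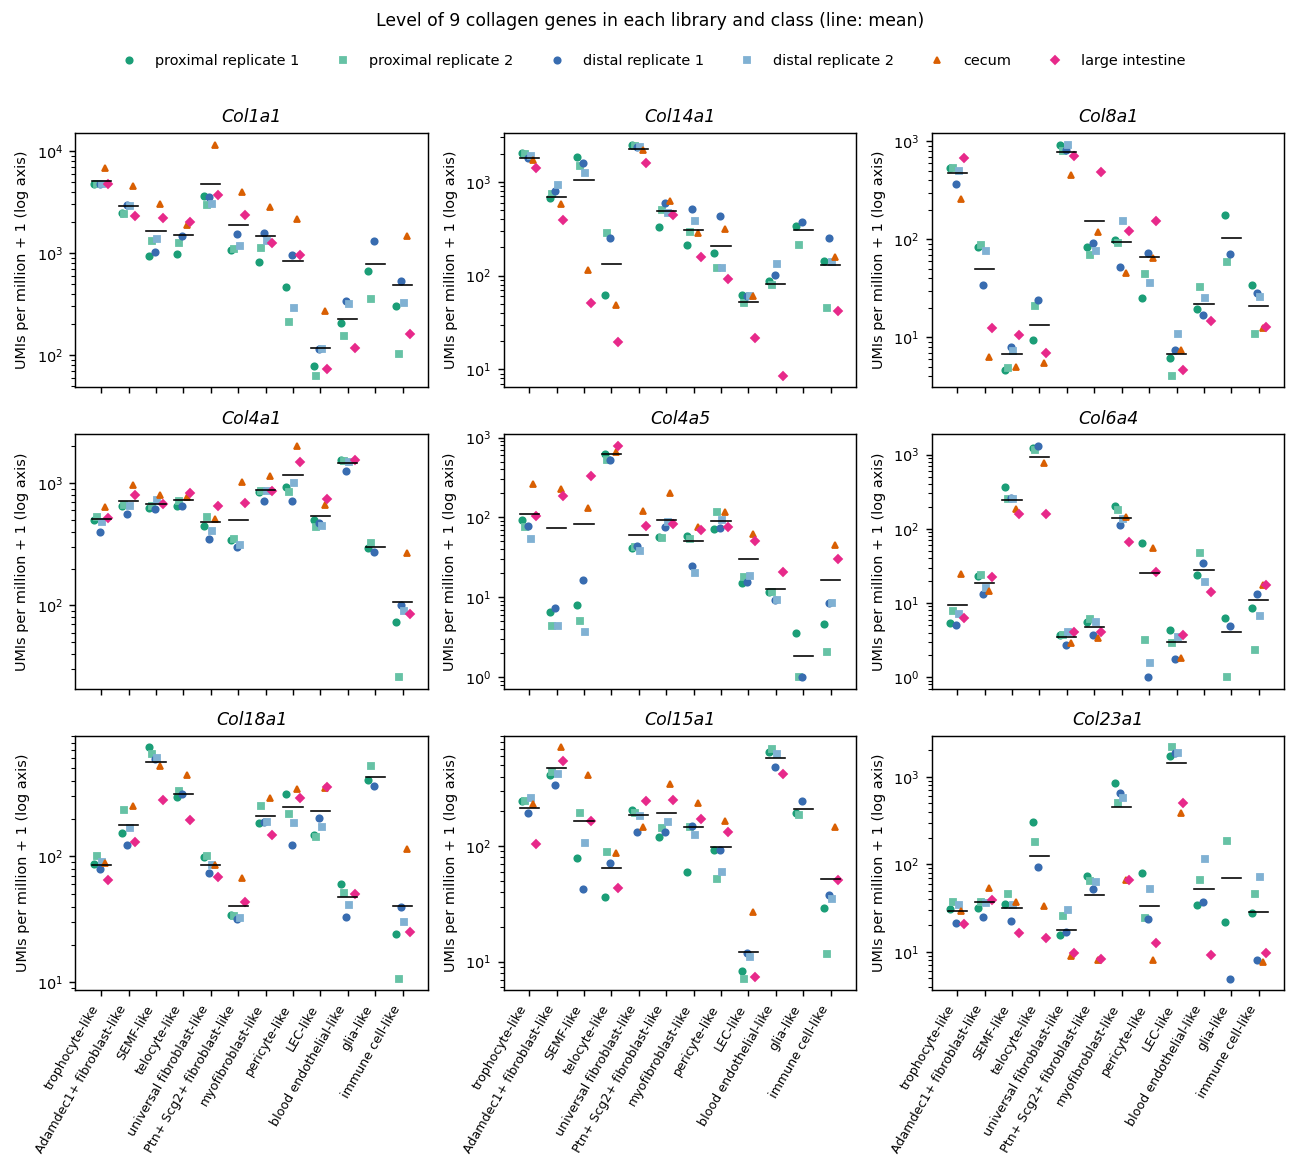
CPM on a log axis of 9 collagen genes (panels) in each cell class (x axis), with 1 point per library coloured by intestinal region. Col8a1 is at 3.64 to 9.63 CPM in SEMF-like cells and 259 CPM or more in trophocyte-like ones, Col4a5 is at 517 CPM or more in every telocyte-like library, and Col23a1 is highest in LEC-like cells.

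Adamdec1+ fibroblast-like cells, which express the metalloprotease-like gene Adamdec1 and lie in the mucosal lamina propria, were compared with trophocyte-like cells. Their markers Adamdec1, Vwc2 and Abca8a are not theirs alone. In SEMF-like and telocyte-like cells the median of these markers' summed UMIs was above that of the class's own marker list, though below that in Adamdec1+ cells. Of the 37 collagen genes tested, 11 were higher and 16 lower, where 38.2% of all 15456 genes passed. The median change was -0.31 over the members and 0.00 over all genes. Col1a1 was lower, at 2910 ± 826 against 5113 ± 859 CPM (-0.97 ± 0.10, adjusted p = 5.11e-05), as was Col3a1 (-0.56 ± 0.10, adjusted p = 0.00193). Col14a1, which regulates fibril diameter, was at 677, 734, 799, 934, 576 and 387 CPM in Adamdec1+ cells, under the lowest trophocyte-like library at 1413 CPM (-1.58 ± 0.11, adjusted p = 9.89e-06). Col8a1 was also lower (-3.58 ± 0.40). So were Col8a2 and Col4a4, with changes of -1.98 to -1.54 and -1.70 to -1.31 over the fits that left out 1 library.

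Col22a1 had the largest rise in the Adamdec1+ class, with changes of 3.71 to 4.44 over the fits that left out 1 library. With free RNA subtracted, trophocyte-like Col22a1 averaged 0.439 CPM, so the size of this fold is not exact. Col27a1 was higher by 1.37 to 1.64 in the same fits. Both multiplexins were also higher in the Adamdec1+ class. Col15a1 was at 413, 435, 340, 421, 714 and 542 CPM there and at 104 to 258 CPM in trophocyte-like cells, with no overlap (1.00 ± 0.21, adjusted p = 0.00438), and Col18a1 was higher by 0.83 ± 0.10 (adjusted p = 0.000219). Col6a5, the other alternative type VI chain, was at 244, 223, 265, 306, 519 and 15.9 CPM in Adamdec1+ cells and at 61.9, 58.2, 79.9, 127, 87.9 and 0 CPM in trophocyte-like cells (1.74 ± 0.19, adjusted p = 8.74e-05). The large intestinal library was the lowest in both classes. Col4a1 was modestly higher (0.34 ± 0.07, adjusted p = 0.00424), while Col6a1 was at means of 1003 and 914 CPM (-0.02 ± 0.08, adjusted p = 0.889). The calls named for these first comparisons, apart from Col1a2, whose refits are not described here, were kept when any 1 library was left out.

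Universal fibroblast-like cells, which carry Pi16 or Dpp4, were compared with trophocyte-like cells, the other deep fibroblast class. Of the 31 members tested, 5 were higher and 10 lower, where 27.6% of all 12726 genes passed. The median change was -0.24 over the members and 0.00 over all genes. Col8a1 was at 927, 798, 821, 908, 451 and 716 CPM in universal and 540, 530, 366, 503, 259 and 669 CPM in trophocyte-like cells, higher within each of the 6 libraries (0.73 ± 0.12, adjusted p = 0.00114). Col14a1 and Col5a3, a minor type V chain, were higher by 0.31 ± 0.06 and 0.37 ± 0.08. Col6a4, Col13a1, Col24a1, Col4a5 and Col4a6 were lower, Col4a5 by 0.81 and the others by more on the log2 scale. With free RNA subtracted, however, trophocyte-like Col6a4 averaged 3.22 CPM with 2 libraries at 0, so no difference in its expression is read here, and Col24a1 averaged 9.41 CPM with 1 library at 0.

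The type I level of universal cells turned on the cecum. Col1a1 was at 3611, 2964, 3524, 3039, 11585 and 3735 CPM in universal fibroblast-like cells, with the cecal library far above the others. Over 6 libraries the change from trophocyte-like cells was -0.29 ± 0.17 (adjusted p = 0.251), and without the cecum it was -0.51 (adjusted p = 0.00021). Col3a1 (-0.16 ± 0.13, adjusted p = 0.408) and Col6a1 (-0.24 ± 0.08, adjusted p = 0.054) likewise passed without the cecum, with -0.32 and -0.31, and Col15a1 (-0.19 ± 0.18, adjusted p = 0.472) passed without the large intestine, with -0.41. The cecal library held 73 trophocyte-like and 2096 universal fibroblast-like cells.

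Telocyte-like cells, identified by Foxl1, Bmp7, Bmp3, Wnt5a and Lgr5, were compared with SEMF-like cells over the 5 libraries that held enough of them. Col4a5 and Col4a6, the paired basement membrane chains on the X chromosome (chrX:140258354-140472231 and chrX:139948399-140257072), were high in all 5. Col4a5 was at 622, 530, 517, 667 and 781 CPM in telocyte-like cells of proximal replicates 1 and 2, distal replicate 1, the cecum and the large intestine, and at 6.93, 4.05, 15.5, 128 and 334 CPM in SEMF-like cells of the same libraries. Col4a6 was at 436, 390, 453, 373 and 440 CPM against 2.62, 4.78, 13.0, 66.5 and 215 CPM. Telocyte-like levels varied little by region, whereas the SEMF-like levels were low in the small intestine and raised in the large bowel.

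Of the 29 collagen genes tested, 5 were higher and 4 lower in telocyte-like cells, where 8.37% of all 13150 genes passed. The fitted changes were 4.43 ± 1.04 for Col4a5 (adjusted p = 0.044), 4.41 ± 1.07 for Col4a6 (adjusted p = 0.0476), 1.70 ± 0.34 for Col6a4, 1.58 ± 0.34 for Col24a1 and 1.34 ± 0.25 for Col12a1, a fibril-associated collagen. Col14a1 was lower (-2.45 ± 0.49, adjusted p = 0.0258), as were Col6a5 (-1.68 ± 0.32), Col18a1 (-0.79 ± 0.15) and Col3a1 (-0.67 ± 0.13). The number of members called fell from 9 to 3 without proximal replicate 1, to 0 without proximal replicate 2, to 1 without distal replicate 1 and to 2 without the cecum, and was 13 without the large intestine. The change of Col4a5 was then 3.72, 3.65, 4.16 and 5.14 without the first 4 of these libraries, with adjusted p from 0.06 to 0.14. In the 3 small intestinal libraries alone the change of Col4a5 was 6.23 (adjusted p = 1.7e-07) and that of Col4a6 6.25, and 17 members were called. Calls over all genes moved too, from 1101 in the main fit to 431, 395, 544, 502 and 1593 without those libraries, in the order above. They were 2067 in the 3 small intestinal libraries. These libraries held 33 to 91 telocyte-like cells each, and the large intestine 1850.

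Col6a4 was at 1215, 1158, 1307, 777 and 159 CPM in telocyte-like cells of those libraries, highest in the small intestine and lowest in the large intestine. Col4a3 showed the same order more sharply, with 134, 128, 100, 3.02 and 0.994 CPM, as did Col4a4, with 75.5, 54.6, 36.7, 1.51 and 1.14 CPM. The telocyte marker Lgr5 was at 1296, 737 and 737 CPM in the small intestinal libraries and at 53.9 and 21.5 CPM in the cecum and large intestine, while Bmp7 was at 232 to 263 CPM in all 5. Col1a1, Col4a1 and Col6a1 were at means of 1517, 719 and 1515 CPM in telocyte-like and 1708, 670 and 1218 CPM in SEMF-like cells, and none passed (adjusted p = 0.924, 0.643 and 0.096). Col15a1 was at 64.4 and 177 CPM (-1.32 ± 0.39, adjusted p = 0.0855) and passed without distal replicate 1 (-1.70, adjusted p = 0.020).

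Ptn+ Scg2+ fibroblast-like cells were set against SEMF-like cells as another mucosal fibroblast class. Of the 32 collagen genes tested, 10 were higher and 12 lower, where 40.6% of all 12938 genes passed. Col25a1, a transmembrane collagen known from neurons, was at 108, 84.8, 133, 262, 36.3 and 37.9 CPM in Ptn+ Scg2+ cells and at 0 to 1.04 CPM in SEMF-like cells (7.30 ± 0.53, adjusted p = 4.09e-05). It was lower in the cecal and large intestinal libraries, where the marker Scg2 was at 0 and 14.7 CPM, against 16.5 to 697 CPM in the small intestine. Col8a1 (4.48 ± 0.29) and Col4a3 (3.89 ± 0.36) were also higher, as were Col8a2 and Col17a1, at means of 12.4 and 7.35 CPM against 0.121 and 0.117 CPM. With free RNA subtracted, SEMF-like Col8a1 was at 0 in all 6 libraries, and Col4a3 and Col25a1 averaged 0.924 and 0.216 CPM there. The sizes of these folds are therefore not exact. Col6a4 (-5.95 ± 0.14), Col6a5 (-4.12 ± 0.32), Col18a1 (-3.79 ± 0.29), Col12a1 (-2.49 ± 0.35) and Col22a1 (-4.90 ± 0.46) were lower.

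Col3a1 was lower in Ptn+ Scg2+ than in SEMF-like cells (-0.52 ± 0.13, adjusted p = 0.0142), while Col1a1 was at 1867 ± 1143 and 1650 ± 821 CPM (0.15 ± 0.13, adjusted p = 0.381). Col6a1 was lower (-0.80 ± 0.22, adjusted p = 0.0197), but this call was lost without any 1 of the small intestinal libraries (-0.70 without proximal replicate 1, -0.70 without proximal replicate 2, -0.79 without distal replicate 1 and -0.71 without distal replicate 2). Col4a1 (-0.58 ± 0.22, adjusted p = 0.0639) passed without the cecum (-0.74) or the large intestine (-0.69). Col14a1 (-0.42 ± 0.90, adjusted p = 0.748) passed in the small intestinal libraries alone (-1.69), and Col15a1 did not pass (adjusted p = 0.171).

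LEC-like cells, defined by Prox1, Lyve1, Mmrn1, Reln, Flt4 and Ccl21a, were compared with 54399 fibroblast-like cells as 1 group. This group holds the cells whose best score among the 6 fibroblast classes reached 0.3 and led those of the other lineages by 0.25, including cells between fibroblast classes that were left without a class. Of the 39 collagen genes tested, 31 were lower and 2 higher, where 68.3% of all 16924 genes passed, and the median change was -4.13 over the members and -0.04 over all genes. Col1a1 was at 76.5, 61.5, 113, 113, 267 and 71.3 CPM in LEC-like cells and at 3735 ± 1575 CPM in fibroblast-like cells (-5.09 ± 0.15, adjusted p = 1.01e-07). Col3a1, Col6a1, Col14a1 and Col15a1 were lower by 4.93 ± 0.15, 4.67 ± 0.13, 4.43 ± 0.11 and 4.82 ± 0.25 on the log2 scale. All 8 fibrillar genes called and all 6 type VI genes were lower.

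The low levels of Col1a1, Col3a1 and Col6a1 in LEC-like cells were compared with carried-over RNA. Relative to the free RNA of the same library, the median LEC-like level was 3.12% for Col1a1, 3.65% for Col3a1 and 3.84% for Col6a1, and the immune cell-like class, which should lack these genes, was at 12.9, 14.2 and 10.9%. Shares at or below that of immune cells are read as background, so no expression of these 3 genes is read from LEC-like cells. Col5a3 was at 12.1% in LEC-like and 11.6% in immune cell-like cells.

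A small set of collagens did not follow this pattern in LEC-like cells. Col23a1, a transmembrane collagen (chr11:51180566-51474745), was at 1731, 2157, 1877, 1889, 380 and 500 CPM and at a mean of 28.1 CPM in fibroblast-like cells (5.49 ± 0.35, adjusted p = 2.93e-06). Its median LEC-like level was 1117% of that in free RNA. Free RNA held a mean of 205 CPM of Col23a1, and its part in the fibroblast-like level was not tested, so the size of the fold is not exact. Col4a1 was at 496, 435, 470, 446, 660 and 735 CPM, near the fibroblast-like mean of 607 CPM (-0.16 ± 0.08, adjusted p = 0.105), and passed as lower without distal replicate 1 (-0.25) or the large intestine (-0.28). Col4a2 was lower (-0.75 ± 0.13, adjusted p = 0.000914). Col18a1 was at 147, 142, 200, 169, 349 and 357 CPM, with a change of 0.15 ± 0.22 (adjusted p = 0.563), and Col4a1, Col4a2 and Col18a1 stood at 86.9, 57.6 and 108% of their free RNA levels. The other higher gene, Col26a1, was at a mean of 4.95 CPM.

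**Figure D4:**
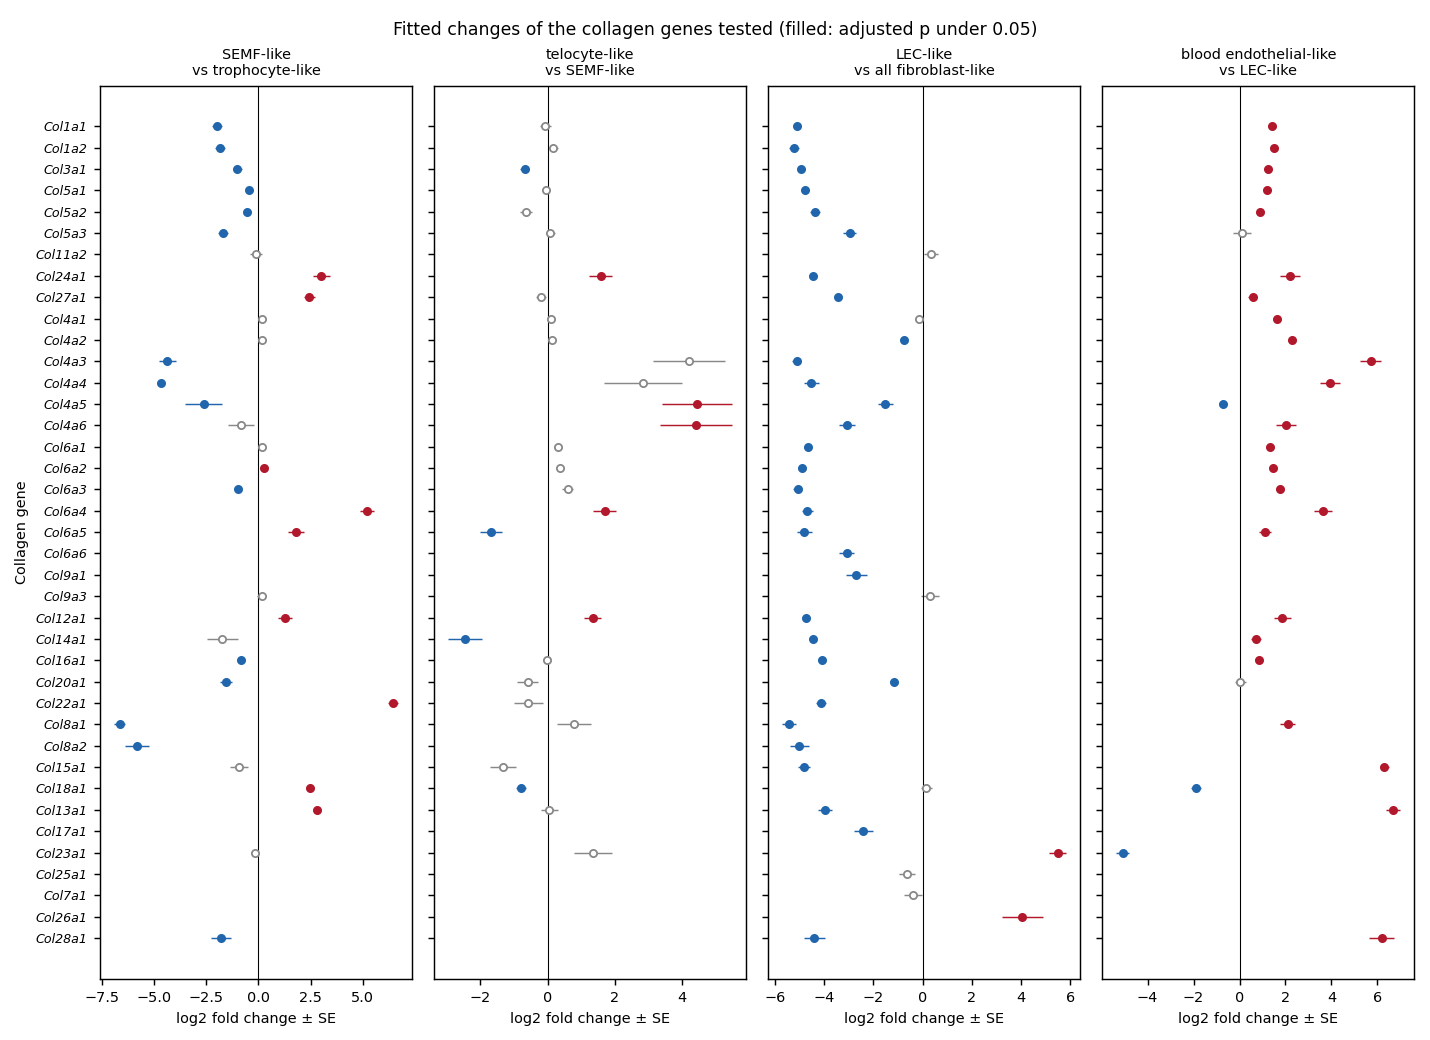
Fitted log2 fold changes (x axis, with standard errors as bars) of the collagen genes tested (y axis) in 4 comparisons (panels), with filled points for adjusted p under 0.05. In the LEC-like panel nearly all genes lie left of 0 and Col23a1 lies far right, at 5.49.

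Blood endothelial-like cells, marked by Plvap, Flt1, Emcn, Sox17 and Podxl, differed from LEC-like cells in their vessel collagens over 5 libraries. Of the 29 members tested, 24 were higher and 3 lower, where 57.9% of all 11872 genes passed, and the member median was 1.47 against -0.01 over all genes. Col4a1 was at 1538, 1505, 1243, 1490 and 1526 CPM in the 4 small intestinal libraries and the large intestine, against 435 to 735 CPM in LEC-like cells (1.62 ± 0.11, adjusted p = 4.29e-06). Col4a2 was higher by 2.29 ± 0.18 (adjusted p = 1.01e-05). Col15a1 was at 647, 691, 479, 626 and 423 CPM, against 6.12 to 10.98 CPM in LEC-like cells of these libraries (6.30 ± 0.20, adjusted p = 7.69e-08). Col13a1 was at 83.9 to 164 CPM against a mean of 1.52 CPM (6.69 ± 0.31). LEC-like Col15a1 and Col13a1 were at medians of 3.58 and 6.12% of free RNA, below the immune cell-like 14.2 and 16.0%. The sizes of these folds are therefore not exact. The other multiplexin, Col18a1, was lower in blood endothelial-like cells (-1.91 ± 0.22, adjusted p = 0.000107), as was Col23a1 (-5.09 ± 0.27).

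Fibrillar collagens were higher in the blood endothelial-like class too, with Col1a1 at 207, 154, 338, 314 and 117 CPM (1.43 ± 0.12, adjusted p = 1.47e-05) and Col3a1 higher by 1.23 ± 0.09. These levels were 8.46 and 8.69% of those in free RNA, again below the immune cell-like share, whereas Col4a1, Col4a2 and Col15a1 were at 245, 278 and 259% of free RNA. With 10% of the free RNA profile subtracted, which sets levels below that share to 0, 11 members were called in place of 27, and without removal of doublets 17. Over all genes, 6321 and 6758 were called in these fits in place of 6878. Col14a1 (0.70 ± 0.21, adjusted p = 0.0198) lost its call without any 1 small intestinal library (0.72, 0.68, 0.64 and 0.53 without proximal replicates 1 and 2 and distal replicates 1 and 2).

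Pericyte-like cells (Rgs5, Kcnj8, Abcc9) and myofibroblast-like cells (Myh11, Des, Actg2), both contractile, differed in 20 of 30 members tested, 6 higher and 14 lower in pericyte-like cells, where 30.7% of all 10764 genes passed. The member median was -0.62 and that of all genes -0.02. Col23a1 was at 857, 495, 653, 571, 65.8 and 64.7 CPM in myofibroblast-like cells and at 77.8, 23.5, 22.9, 51.7, 6.98 and 11.5 CPM in pericyte-like cells (-3.52 ± 0.23, adjusted p = 3.21e-06). In both classes, as in LEC-like and telocyte-like cells, the cecal and large intestinal libraries were the lowest. Free RNA held 23.2 to 450 CPM of Col23a1, and its part in the pericyte-like and telocyte-like levels was not tested. Col1a1 and Col3a1 were lower by 1.07 ± 0.27 and 0.91 ± 0.21, and Col12a1, Col6a4, Col6a5 and Col22a1 by 1.83 to 3.64.

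Col28a1, a von Willebrand domain collagen, was at 29.2, 26.7, 26.7, 30.6, 9.77 and 10.7 CPM in pericyte-like and at a mean of 4.34 CPM in myofibroblast-like cells (2.42 ± 0.33, adjusted p = 0.000355), and Col5a3 was higher by 1.55 ± 0.25. Col4a5 was higher by 1.02 ± 0.27 (adjusted p = 0.0162) but not without proximal replicate 2 (0.94, adjusted p = 0.055). Col4a1 was at 1160 ± 487 CPM in pericyte-like and 876 ± 141 CPM in myofibroblast-like cells (0.38 ± 0.12, adjusted p = 0.0347), and this call was kept only without distal replicate 1: leaving out proximal replicate 1, proximal replicate 2, distal replicate 2, the cecum or the large intestine gave 0.39, 0.41, 0.40, 0.27 and 0.30. Col6a1 (-0.70 ± 0.21) lost its call without distal replicate 2 (-0.59). Col14a1 (-0.64 ± 0.22) lost it without any library other than the cecum, with changes of -0.75, -0.56, -0.72, -0.44 and -0.61. Col15a1 (-0.55 ± 0.22, adjusted p = 0.0819) passed without proximal replicate 1 (-0.80), and Col18a1 did not pass (adjusted p = 0.278).

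Glia-like cells were few, with 57, 34 and 35 cells in proximal replicates 1 and 2 and distal replicate 1, and were described without a test. Col20a1, a fibril-associated collagen, was at 270, 198 and 177 CPM there and at 13.4 CPM in the next class. Col11a1 was at 96.9, 18.3 and 39.3 CPM, against 0.640 CPM in the next class, Col26a1 at 57.6, 21.4 and 23.6 CPM, and Col16a1 at a mean of 335 ± 36.5 CPM. Col4a4 was at 81.1, 110 and 70.7 CPM and its head-to-head partner Col4a3 at 0, 18.3 and 15.7 CPM, while in trophocyte-like cells the pair stood at means of 44.3 and 33.0 CPM. At the size of the smallest glia-like library 3 UMIs correspond to 11.8 CPM, so the lowest of these values rest on a few molecules. Col20a1, Col24a1 and Col26a1 each overlap 1 other gene on the same strand, so their counts are uncertain to that extent.

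Within the small intestine, distal and proximal libraries were compared in trophocyte-like cells (2 against 2). Of the 38 members tested, 1 was called, where 0.252% of all 16248 genes passed. Col12a1 was at 33.4 and 32.6 CPM in the proximal and 84.8 and 145 CPM in the distal libraries (1.79 ± 0.22, adjusted p = 0.0427). The call was lost without distal replicate 2 (1.41, adjusted p = 0.069). Col1a1 was at 4734 and 4710 CPM proximally and 4810 and 4767 CPM distally (0.03 ± 0.25), and Col3a1, Col4a1, Col6a1, Col14a1, Col15a1 and Col18a1 had changes of -0.23 to 0.07, with adjusted p = 0.998 for each. These fits took no account of the replicate number. With it as a block, which left 1 residual degree of freedom, 659 genes were called, and the collagens among them are counted further below.

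In SEMF-like cells, none of the 30 members tested, and 0.0% of all 14275 genes, passed between distal and proximal libraries by edgeR's quasi-likelihood test. At an unadjusted p under 0.05 there were 396 genes, DESeq2 called 28 and limma-voom 0. Same-numbered libraries carry the same hashtag set. A fit with the replicate number as a block, which left 1 residual degree of freedom, called 207 genes. Col15a1 had the widest gap among the main members, at 78.0 and 194 CPM proximally and 41.3 and 105 CPM distally (-0.85 ± 0.50). The libraries of the regions overlapped, and the distal library of each replicate number was the lower one. Leaving out 1 library, its change ran from -1.66 without distal replicate 2 to -0.07 without proximal replicate 2, and of these fits it passed without proximal replicate 1 (-1.36, adjusted p = 0.0086). In simulated data with 2-fold changes, 23.5% of changed genes were recovered in this comparison and 50% in the one on trophocyte-like cells.

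The cecum and large intestine were then set against the 4 small intestinal libraries. The large bowel side is 1 cecal and 1 large intestinal library, and library and region cannot be told apart. All libraries of the large bowel also carry the same hashtag set as proximal replicate 1 and distal replicate 1. In SEMF-like cells, 10 of the 34 members tested were higher and 3 lower in the large bowel, where 39.6% of all 15330 genes passed. The member median was 0.32 and that of all genes 0.02.

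Col4a5 was at 6.93, 4.05, 15.5 and 2.69 CPM in SEMF-like cells of the small intestinal libraries, 128 CPM in cecal cells and 334 CPM in those of the large intestine (5.33 ± 0.61, adjusted p = 0.000927). Col4a6 followed it, at 2.62, 4.78, 13.0, 2.60, 66.5 and 215 CPM (4.99 ± 0.64, adjusted p = 0.00137). For both genes the large bowel libraries were above all small intestinal ones. Adamdec1+ fibroblast-like cells, which were not tested by region, had Col4a5 at 5.54, 3.32, 6.47, 3.32, 227 and 184 CPM. Type I and III collagens were higher as well: Col1a1 at 2215 and 3050 CPM against 940 to 1362 CPM (1.36 ± 0.23, adjusted p = 0.00375), Col1a2 by 1.34 ± 0.20 (adjusted p = 0.00262), and Col5a3 by 1.45 ± 0.30 (adjusted p = 0.00818). Col3a1 was higher by 1.06 ± 0.25 (adjusted p = 0.0126) but missed the threshold without proximal replicate 1 (0.97, adjusted p = 0.054) or the cecum (1.01, adjusted p = 0.053).

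Col14a1 (chr15:55171140-55384199) went the other way, at 1847, 1466, 1598 and 1247 CPM in SEMF-like cells of the small intestine, 114 CPM in cecal cells and 49.8 CPM in those of the large intestine (-4.05 ± 0.41, adjusted p = 0.000566). It fell below every small intestinal library by more than the spread among them. Col13a1 and Col22a1 were lower by 1.29 ± 0.17 and 1.35 ± 0.28. Col15a1 was at 78.0, 194, 41.3, 105, 411 and 163 CPM, and its change of 1.64 ± 0.54 (adjusted p = 0.0426) was lost without the cecum (0.81, adjusted p = 0.33), proximal replicate 1 (1.52), distal replicate 1 (1.35) or distal replicate 2 (1.63). Col18a1 was at 731, 647, 596, 608, 521 and 280 CPM (-0.51 ± 0.25, adjusted p = 0.142) and passed without the cecum (-1.03, adjusted p = 0.016). Col4a1 and Col6a1 did not pass (0.35 ± 0.16 and 0.42 ± 0.17).

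The markers of the SEMF-like gate moved between the same libraries. Itga8 was at 555 to 827 CPM in the small intestine and 33.2 and 12.2 CPM in the cecum and large intestine, and Frmd5 at 121 to 375 CPM and 2.53 and 1.30 CPM. F3, Procr, Bmp7 and Wnt5a, the last 2 of which were used for the telocyte-like gate, were higher in the large bowel, with Bmp7 at 2.96 to 6.51 CPM and at 20.8 and 102 CPM. Of the other telocyte markers, Foxl1 was at 4.41 to 17.2 CPM and Lgr5 at 0.195 to 4.43 CPM in SEMF-like cells, and Bmp3 is not described here. The study divides SEMFs and telocytes into clusters that were not rebuilt here, so a different mix of them in the large bowel and a change within cells cannot be told apart. Fewer cells of a kind and less RNA per cell cannot be told apart within a class sum.

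**Figure D5:**
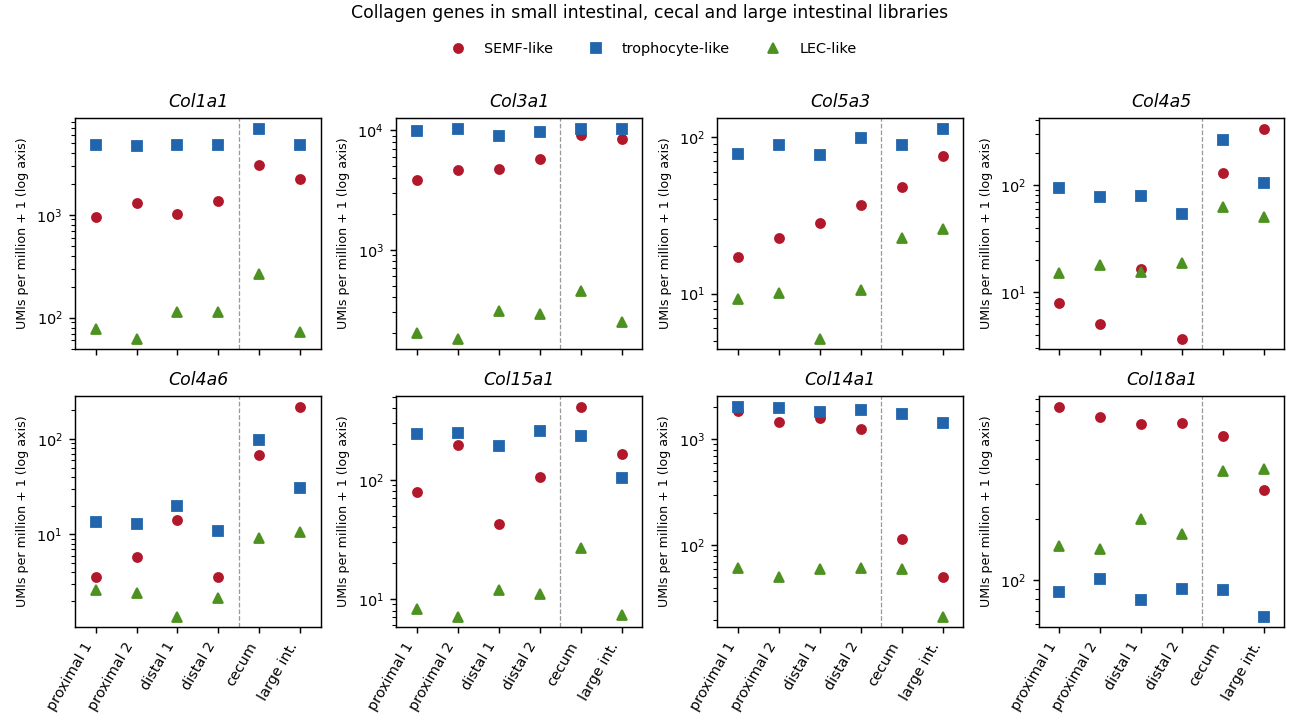
CPM on a log axis of 8 collagen genes (panels) in each library (x axis), with 1 point per cell class. Colour and marker shape give the class: SEMF-like, trophocyte-like or LEC-like. In SEMF-like cells the cecal and large intestinal points lie above the small intestinal ones for Col4a5 and Col4a6 and below them for Col14a1.

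The same comparison was made in trophocyte-like cells. Of the 37 members tested, 1 was higher and 1 lower in the large bowel, where 3.99% of all 16026 genes passed, and the large bowel libraries held 73 and 161 trophocyte-like cells. Col4a6 (1.95 ± 0.45, adjusted p = 0.0469) lost its call without any library other than distal replicate 1, with changes of 1.97 without proximal replicate 1, 1.91 without proximal replicate 2, 1.81 without distal replicate 2, 1.14 without the cecum and 2.79 without the large intestine. Col13a1 (-2.29 ± 0.49, adjusted p = 0.0365) lost it without proximal replicate 1 (-2.25), the cecum (-2.25) or the large intestine (-2.46). Col14a1 was at 2027, 1985, 1813, 1898, 1718 and 1413 CPM (-0.30 ± 0.18, adjusted p = 0.37), and Col1a1, Col3a1, Col4a1, Col6a1, Col15a1 and Col18a1 did not pass either. The median of all genes here was -0.11.

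Testing the difference of the bowel effect between the classes directly, 8 of 39 members passed, where 9.76% of all 16215 genes did, with a median of 0.43 over the members and 0.16 over all genes. The Col14a1 effect was lower in SEMF-like than in trophocyte-like cells by 3.89 ± 0.26 (adjusted p = 0.000277), and this held without any 1 library. The effect was higher in SEMF-like cells for Col4a5 (4.22 ± 0.76, adjusted p = 0.0121), Col1a1 (1.06 ± 0.19, adjusted p = 0.0129), Col1a2, Col3a1, Col4a6, Col5a3 and Col15a1. All of these but Col14a1 lost their calls without the large intestine, with Col4a5 at 2.79 (adjusted p = 0.060), Col1a1 at 1.07 (adjusted p = 0.093), Col1a2 at 1.10, Col3a1 at 1.04, Col4a6 at 1.08, Col5a3 at 1.07 and Col15a1 at 2.36. Col1a1, Col3a1, Col5a3 and Col15a1 also lost them without the cecum (1.08, 0.90, 1.34 and 2.13), and Col4a6 without any 1 small intestinal library (2.88, 3.18, 3.43 and 3.00). For Col4a1, Col6a1 and Col18a1 the differences were 0.04 ± 0.15, 0.09 ± 0.13 and -0.42 ± 0.18, and none passed.

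In LEC-like cells, 6 of the 31 members tested were higher and 1 lower in the large bowel, where 19.8% of all 13990 genes passed. Col23a1, at 1731 to 2157 CPM in the small intestine, was at 380 CPM in cecal cells and 500 CPM in those of the large intestine (-2.15 ± 0.18, adjusted p = 7.18e-05). Col18a1 moved up, from 142 to 200 CPM to 349 and 357 CPM (1.08 ± 0.15, adjusted p = 0.00129), and Col4a5 from 14.2 to 17.7 CPM to 61.2 and 49.2 CPM (1.74 ± 0.16, adjusted p = 0.000166). Col4a2 was higher by 0.78 ± 0.13 (adjusted p = 0.00457). These 4 calls held without any 1 library. Free RNA held 13.7 to 261 CPM of Col4a5, and the large intestinal LEC-like level was 18.9% of it, near the immune cell-like median of 17.4%. The Col4a5 change still passed with free RNA subtracted. Col4a1 (0.57 ± 0.12, adjusted p = 0.0123) was lost without the cecum (0.58, adjusted p = 0.052) or the large intestine (0.45), Col5a3 (adjusted p = 0.00886) likewise (1.51 and 1.34), and Col4a6 (2.76 ± 0.43) without the large intestine (2.59, adjusted p = 0.053). With free RNA subtracted Col4a6 was at -0.40 and did not pass.

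Other fibrillar genes than Col5a3 did not pass between the bowels in LEC-like cells over all libraries. Col1a1 was at 71.3 CPM in the large intestine and 267 CPM in the cecum (0.84 ± 0.43, adjusted p = 0.190), passed as higher without the large intestine (adjusted p = 0.024) and was at -0.42 without the cecum. LEC-like Col1a1 was at 2.89 to 4.65% of the free RNA of the same library. Col15a1 (0.75 ± 0.48) passed without the large intestine (1.57) and was at -0.48 without the cecum. Beyond these, Col14a1 (-0.67 ± 0.32) passed without the cecum (-1.58) and Col6a1 (0.60 ± 0.26) without distal replicate 2 (0.83). Col3a1 did not pass (0.49 ± 0.27, adjusted p = 0.228). The median LEC-like levels of Col15a1, Col14a1 and Col6a1 were 3.58, 6.13 and 3.84% of free RNA. In immune cell-like cells they were 14.2, 15.7 and 10.9%. No change in LEC-like expression of Col1a1, Col3a1, Col6a1, Col14a1 or Col15a1 is therefore read here.

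Other genes of collagen synthesis were read from a list of 40 genes for folding and modification, propeptide cleavage, cross-linking and collagen receptors. Between SEMF-like and trophocyte-like cells, 8 of 37 tested were higher and 22 lower, where 50.4% of all genes passed, and among the 17 folding and modification genes 1 was higher and 14 lower. Plod2, a lysyl hydroxylase, P4ha2, a prolyl hydroxylase subunit, and Loxl1, a cross-linking oxidase, were lower in SEMF-like cells by 2.49, 1.98 and 1.94 on the log2 scale, and Serpinh1, the collagen chaperone HSP47, by 0.73. The integrin chain genes Itga1 and Itga2, whose products bind collagen, were higher by 1.08 and 1.51.

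In the large bowel, 18 of 37 list genes were higher and 4 lower in SEMF-like cells, where 39.6% of all genes passed. Of the folding and modification genes 13 of 17 were higher and none lower, of the propeptide cleavage genes 2 of 7 were higher and 3 lower, and of the collagen receptors none of 8 was higher and 1 lower. Plod2, P4ha2, Serpinh1 and Pcolce, an enhancer of propeptide cleavage, rose by 2.38, 2.04, 1.25 and 1.85. In trophocyte-like cells 2 of 37 were higher, where 3.99% of all genes passed. The difference of the bowel effect passed for 12 of 37, 11 of them higher in SEMF-like cells, where 9.76% of all genes passed. LEC-like cells had 30 of 38 list genes lower than fibroblast-like cells and 5 higher, where 68.3% of all genes passed. Among the higher ones were Tll1, a propeptidase of the Bmp1 family (6.74), P3h2, a prolyl hydroxylase of basement membrane collagen (2.01), and P4ha1 (1.08).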

How the data were processed

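The libraries hold 3′ gene expression of reporter-positive cells sorted from intestinal lamina propria. The authors counted reads with Cell Ranger (8.1.0 in their methods, 8.0.1 in the matrix headers) on mm39 with tdTomato added, and deposited raw UMI counts for all barcodes. Their later doublet, free RNA and clustering steps are not in those counts.

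Barcodes passed with between 1000 and 7500 genes detected, between 2500 and 40000 UMIs, and a mitochondrial share below 10%, and doublets called by Scrublet in scanpy 1.11.5 removed. A cell joined a class with a mean marker z score of at least 0.3 and a lead of at least 0.25, thresholds set after seeing the data. Counts were summed per library and class (30 or more cells) and tested in edgeR 4.0.16 (quasi-likelihood, TMM, filterByExpr with a count minimum of 10, adjusted p of 0.05). DESeq2 1.42.0 and limma 3.58.1 served as alternatives, and the pipeline was tested on simulated data. Members and lists were chosen with earlier results of these data known. The named genes of each comparison were up to 5 collagen genes per direction. These had the largest changes among those that passed, moved the same way in every library and reached 5 CPM in 1 group. Col1a1, Col3a1, Col4a1, Col6a1, Col14a1, Col15a1 and Col18a1 were added for every comparison. Not every named gene is described above for its comparison. P-values measure the spread between libraries, which may in part be technical, and intervals of counting error were not added. The fits on small intestinal libraries only, proximal libraries only and 1 hashtag set only were chosen after seeing the data.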

Additional observations from a re-analysis of the deposited data

Results flagged for a closer look

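The effect of the large bowel differed between SEMF-like and trophocyte-like cells for 8 of the 39 collagen genes tested. The test was of the difference itself (edgeR's quasi-likelihood test, adjusted over all genes), where 9.76% of all 16215 genes passed. The log2 difference, SEMF-like minus trophocyte-like, was 4.22 for Col4a5, 3.13 for Col4a6, 2.23 for Col15a1, 1.23 for Col5a3, 1.11 for Col1a2, 1.06 for Col1a1, 0.95 for Col3a1 and -3.89 for Col14a1. The large bowel side holds 1 cecal and 1 large intestinal library, and the difference for Col14a1 alone among these 8 kept its call without any 1 library. The cecal library held 73 trophocyte-like cells.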

How the results depend on the processing

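Direction turned for 2 named results that had passed the test, and also for some that had not. In blood endothelial-like vs LEC-like: Col14a1 was -0.0519 when classes were assigned by likelihood. Col4a6 between bowels in LEC-like cells was -0.40 with free RNA subtracted. Of the 116 named calls, 114 held with DESeq2, 109 with limma-voom, 115 without a filter on low counts, 108 each with likelihood assignment and without doublet removal, and 106 without multiple hashtags. Where fewer were tested, 68 of 96 held without the library block, 96 of 110 with free RNA subtracted and 104 of 115 with the stricter gate. The causes of the shifts below were not tested, and fits with fewer libraries have fewer degrees of freedom.

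Without the library block, genes called went from 7307 to 4756 (SEMF-like against trophocyte-like), 5903 to 2127 (Adamdec1+), 1101 to 454 (telocyte-like), 3510 to 962 (universal) and 1583 to 597 (difference of bowel effects), and collagens from 27 to 14 (Adamdec1+), 9 to 3 (telocyte-like), 15 to 4 (universal), 20 to 10 (pericyte-like) and 8 to 3 (difference). For telocyte-like against SEMF-like cells, genes called were 1709 by DESeq2, 1673 without doublet removal, 566 without cells of multiple hashtags, 492 with a stricter gate, 2789 by likelihood, 2067 in the small intestine only and 395 to 1593 leaving out 1 library. Collagens were 16, 2, 3, 16, 17 and 0 to 13 under DESeq2, hashtag removal, the stricter gate, likelihood, the small intestine only and leaving out 1 library. Universal fibroblast-like calls were 6501 genes by likelihood and 23 collagens in the small intestine only. Collagens called between blood endothelial-like and LEC-like cells went from 27 to 11 with free RNA subtracted and 17 without doublet removal.

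Distal against proximal trophocyte-like cells gave 41 genes, 250 by DESeq2, 5 without a filter, 84 with the stricter gate, 25 by likelihood and 0 to 167 leaving out 1 library, with collagens at 4 by DESeq2, 0 without a filter, 2 each with free RNA subtracted, without multiple hashtags, with the stricter gate and with the stricter cell filter, and 0 to 3 leaving out 1 library. SEMF-like cells gave 28 genes by DESeq2, 176 genes and 2 collagens without a filter, and 0 to 122 genes and 0 to 1 collagens leaving out 1 library. Same-numbered small intestinal libraries carry the same hashtag set, which the labels do not call a batch, and had correlations of deviations of 0.431 (trophocyte-like) and 0.387 (SEMF-like). With a replicate block, 659 genes and 6 collagens were called in trophocyte-like cells and 207 genes and 2 collagens in SEMF-like cells.

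Between bowels, leaving out 1 library gave 3918 to 6764 genes in SEMF-like cells, 1151 to 3725 in LEC-like cells and 91 to 915 in trophocyte-like cells, and 1 hashtag set only gave 2481 and 1489 in the first 2. In LEC-like cells 14 collagens were called without a filter. In trophocyte-like cells genes were 1115 by DESeq2, 266 by limma-voom, 299 with the stricter gate and 357 by likelihood, and collagens 0 by limma-voom, 1 each with free RNA subtracted, without multiple hashtags, with the stricter gate and with the stricter cell filter, 4 with 1 hashtag set and 0 to 2 leaving out 1 library. The difference of effects gave 3473 genes and 14 collagens by likelihood, 5 collagens with free RNA subtracted, and 399 to 1314 genes and 1 to 7 collagens leaving out 1 library. The collagen share of LEC-like cells was 0.254% with free RNA subtracted and 0.614% without doublet removal, and that of blood endothelial-like cells 0.352, 0.704 and 0.428% (by likelihood).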

Other observations

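Members not described above were low or spread over many classes. Col19a1, a fibril-associated collagen, was at 46.6, 66.01, 6.74, 14.4, 2.12 and 8.15 CPM in myofibroblast-like cells and at 58.4, 56.7, 0, 17.8, 4.19 and 6.88 CPM in pericyte-like cells. Both classes had their highest values in the proximal libraries, and this was not tested by region. Col9a2 and Col9a3, chains of a cartilage collagen, were at means of 12.5 and 8.73 CPM in glia-like cells. Col6a6 reached 5.70 CPM in Ptn+ Scg2+ fibroblast-like cells. Col6a3 was at a mean of 1411 CPM in the same class, with 2.19 UMIs for each UMI of Col6a1.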
